A study of Homo sapiens with 12 samples.

Results

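Transcript levels were followed for 10 genes that shape the inner mitochondrial membrane or control the quality of its proteins: OPA1, OMA1, YME1L1, CLPB, CLPP, AFG3L2, SPG7, PHB1, PHB2 and IMMT. They were taken by gene symbol from the 60675 Ensembl identifiers counted in every library, and PHB1 is the gene called PHB in older annotations. The libraries came from SUDHL6 and SUDHL16, established human lines of diffuse large B cell lymphoma (DLBCL) of the germinal centre type. Each parental line was compared with a resistant line derived from it by months of culture in rising concentrations of venetoclax (ABT-199), an inhibitor of the survival protein BCL2, until it grew at 10 times the original IC50 or more in the continued presence of the drug. There were 3 libraries in each of the 4 groups, CE-7, CE-8 and CE-9 for parental and CE-10, CE-11 and CE-12 for resistant SUDHL6, and CE-25, CE-26 and CE-27 for parental and CE-28, CE-29 and CE-30 for resistant SUDHL16. Each resistant line is a single derivative of its parent, and no source used here says that its libraries came from separate cultures, so the p-values measure the spread between these libraries, which may be technical. The resistant lines were kept in venetoclax, and per the paper parental and resistant cells were put into fresh medium for experiments. Whether drug was present when RNA was taken is not stated in the sources used here. Drug exposure and resistance therefore cannot be told apart. Library kit and sequencer differ between the lines and cannot be told apart from the line.

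The inner membrane of mitochondria folds into cristae, which hold the respiratory chain and much of the cytochrome c that is released during apoptosis. OPA1, a dynamin-like GTPase, fuses inner membranes and keeps crista junctions narrow, and IMMT (mitofilin, MIC60) is the core of the MICOS complex that forms those junctions. The proteases YME1L1 and OMA1 both cut OPA1, OMA1 mainly under stress. PHB1 and PHB2, the prohibitins, assemble together into ring-shaped scaffolds in the inner membrane, to which the m-AAA protease built from AFG3L2 and SPG7 (paraplegin) binds. CLPP is the proteolytic core of a matrix protease, and CLPB is a disaggregase of the intermembrane space. Because several of these proteins are regulated by cutting or assembly, the transcript levels given here do not measure protease activity or crista shape.

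Members with a promoter entry in RefSeq (GRCh38.p14, 250 bases before to 50 bases after the start) numbered 8 of 10, all but YME1L1 and CLPP. The windows of PHB2 and AFG3L2, the members that changed by at least 1.5-fold in SUDHL6, and of PHB1, the partner of PHB2, are printed 5′ to 3′ on the coding strand. All 3 genes lie on the minus strand, with windows at chr12:6970615-6970914 for PHB2, chr18:12377178-12377477 for AFG3L2 and chr17:49414833-49415132 for PHB1. Capitals mark matches to any of 3 short motifs searched on both strands, TGCGCA (core of NRF1 sites), CCGGAAG (core of ETS sites) and ATGGCGG (core of YY1 sites).
PHB2: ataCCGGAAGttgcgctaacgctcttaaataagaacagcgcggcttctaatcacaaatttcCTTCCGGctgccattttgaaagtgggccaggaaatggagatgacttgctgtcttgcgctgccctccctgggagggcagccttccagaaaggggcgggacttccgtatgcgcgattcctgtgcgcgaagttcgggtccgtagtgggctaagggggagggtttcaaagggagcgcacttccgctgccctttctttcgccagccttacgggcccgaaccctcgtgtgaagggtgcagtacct
AFG3L2: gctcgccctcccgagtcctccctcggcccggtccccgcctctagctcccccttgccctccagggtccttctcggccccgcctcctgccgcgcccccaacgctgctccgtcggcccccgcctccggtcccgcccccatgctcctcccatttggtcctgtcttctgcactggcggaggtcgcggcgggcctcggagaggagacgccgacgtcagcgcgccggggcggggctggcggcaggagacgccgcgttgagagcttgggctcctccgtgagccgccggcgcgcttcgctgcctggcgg
PHB1: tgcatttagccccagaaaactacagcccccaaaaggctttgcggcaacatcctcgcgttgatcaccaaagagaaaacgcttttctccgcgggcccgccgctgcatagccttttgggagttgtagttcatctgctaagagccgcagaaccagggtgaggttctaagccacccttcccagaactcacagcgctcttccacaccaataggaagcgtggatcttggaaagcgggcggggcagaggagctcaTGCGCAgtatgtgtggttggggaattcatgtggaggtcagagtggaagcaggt
The PHB2 window held 2 matches to CCGGAAG, a motif present in 10.2% of 34943 promoter windows. PHB2 has another RefSeq window that overlaps this one and held the same 2 matches. The PHB1 window held 1 match to TGCGCA, present in 8.19% of windows, and the AFG3L2 window held none of the 3 motifs. Over the 8 members, 5 had TGCGCA (OPA1, OMA1, CLPB, PHB1 and IMMT), 2 had CCGGAAG (PHB2 and IMMT) and 1 had ATGGCGG (OMA1), which is present in 5.55% of windows. SPG7, with 2 overlapping windows, had none of the 3.

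Total counts ran from 33992784 to 40885665 in the SUDHL6 libraries and from 4131927 to 22068221 in those of SUDHL16. The shallowest, CE-26 of parental SUDHL16, stood apart: it had counts on 34938 identifiers against 20896 to 24655 in the other SUDHL16 libraries, and 31.94% of its counts fell on identifiers without a match in GENCODE 44, against at most 5.061%. Log2 fold changes of the members in SUDHL16 are therefore given with and without it. The biological coefficient of variation, the replicate spread that edgeR estimates, was 0.05161 in SUDHL6, 0.4677 in SUDHL16 and 0.3393 in SUDHL16 without CE-26. All 7 B cell and germinal centre markers examined were at 1 CPM (read counts scaled to a common library size) or more in every library. Summed T and NK cell markers were at most 0.6462 CPM in SUDHL6 libraries. In SUDHL16, however, they were 1.157 to 6.199 CPM in parental libraries, highest in CE-26, and 11.02 to 13.36 CPM in resistant ones. This was mostly CD3E. In the resistant SUDHL16 libraries CD3D and CD2 were at 0 and NKG7 was at most 0.1701 CPM, and in parental ones CD2 reached 1.722 CPM in CE-26. Summed stromal, epithelial and endothelial markers reached 21.01 CPM in parental SUDHL16 library CE-26, mostly COL1A2 (9.987 CPM) and PECAM1 (9.299 CPM). In the other parental SUDHL16 libraries the only one of these markers above 0 was COL1A2, at 0.3307 CPM in CE-25. Resistant SUDHL16 libraries summed to at most 1.659 CPM. The part of these markers in the SUDHL16 results was not tested. In bulk RNA, fewer cells of a kind and less RNA per cell cannot be told apart.

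All 10 members passed the filter on low counts in both lines. Compared to parental SUDHL6, the resistant line had less PHB2 and more AFG3L2, and these were the only 2 members called, that is, with a Benjamini-Hochberg adjusted p under 0.05 in edgeR and a change of at least 1.5-fold. Among all 16662 genes tested in SUDHL6, 8.96% were called. PHB1 also fell and CLPB and IMMT rose, all by less than 1.5-fold, so 5 of 10 members passed the adjusted p, where 37.3% of all genes did. The same 5 did not overlap between the groups, nor did 47.9% of all genes. OPA1, OMA1, YME1L1, CLPP and SPG7 did not pass. The median log2 fold change was -0.0040 over the members and -4.3e-05 over all genes tested. Neither call held when all 12 libraries were fitted together with their common, larger spread, with adjusted p of 0.1106 for PHB2 and 0.4073 for AFG3L2 (edgeR).

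**Figure D1:**
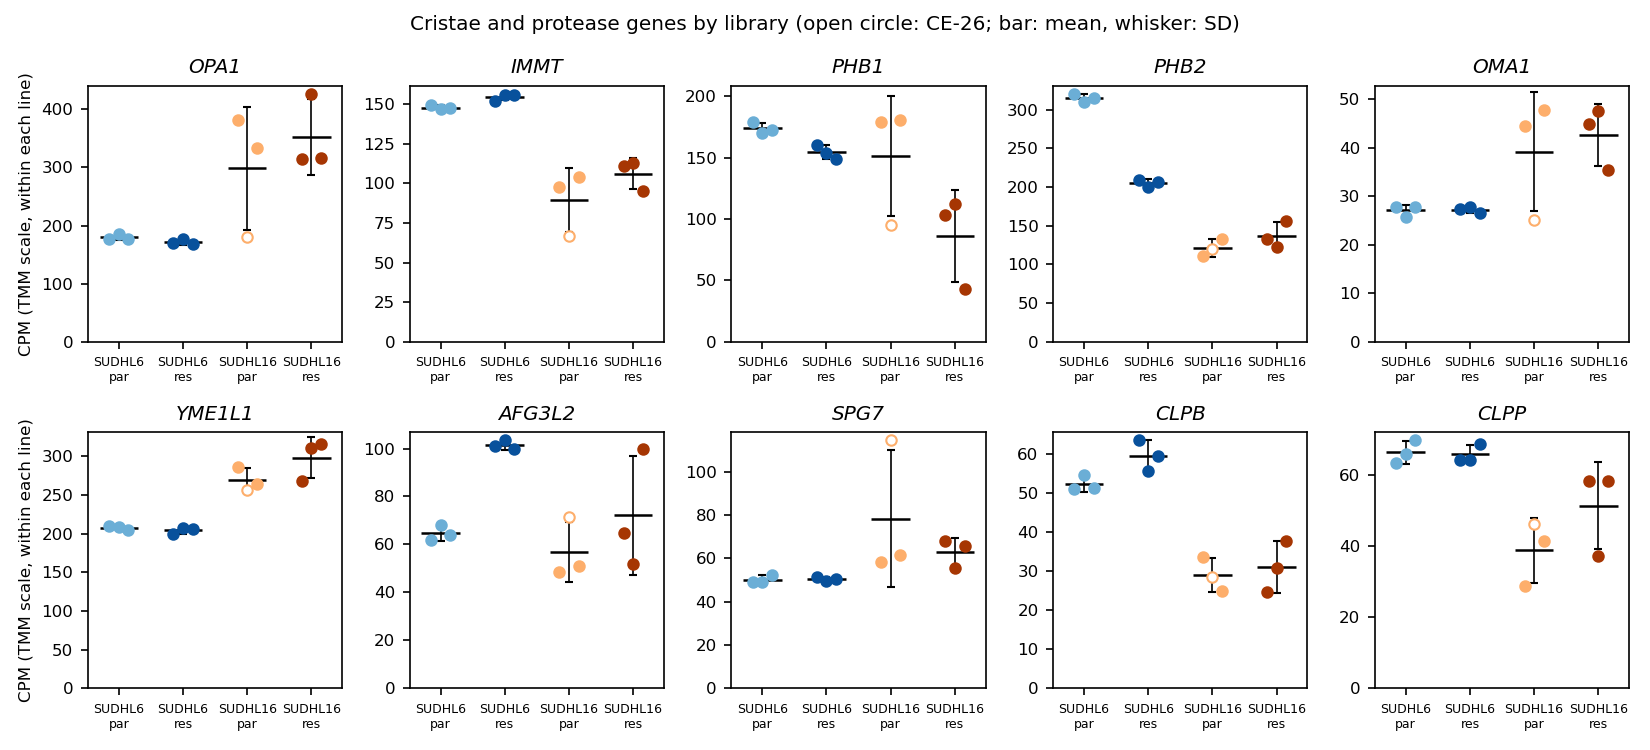
CPM of each of the 10 genes (vertical axes, from 0, scaled within each line) in the 4 groups, 1 point per library, with mean bars and SD whiskers (n = 3) and CE-26 as an open circle. In SUDHL6 the parental and resistant points of PHB2 and AFG3L2 lie far apart, whereas in SUDHL16 the points of every gene overlap between the groups when CE-26 is counted.

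PHB2 (ENSG00000215021, chr12:6965327-6970780 in GRCh38, minus strand) was at 319.9, 309.6 and 315.8 CPM in the parental SUDHL6 libraries and at 209.5, 200.6 and 207.0 CPM in the resistant ones. The groups were well apart, with every resistant library below every parental one. The mean fell from 315.1 ± 5.2 to 205.7 ± 4.61 CPM (SD, n = 3), a log2 fold change of -0.62 ± 0.023 (SE) with an adjusted p of 7.404e-10 (edgeR). The small Cajal body RNA gene SCARNA12 lies inside PHB2 on the same strand, and its own counts were 0.1862% to 11.84% of those of PHB2 over the 12 libraries.

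PHB1 (ENSG00000167085, chr17:49404049-49414905, minus strand) was at 179.2, 170.6 and 172.7 CPM in parental and 160.4, 153.8 and 149.3 CPM in resistant SUDHL6 libraries. It fell in the resistant line without overlap between the groups, but less than its partner PHB2. The mean went from 174.2 ± 4.47 to 154.5 ± 5.59 CPM (SD, n = 3), a log2 fold change of -0.17 ± 0.030 (SE, adjusted p = 0.0005601, edgeR). The count ratio of PHB1 to PHB2 within a library was therefore higher in the resistant line, at 0.7655, 0.7668 and 0.7211 against 0.5601, 0.551 and 0.547 in the parental line. PHB1 has 21 annotated pseudogenes, whose summed counts were 1.164% to 2.213% of the PHB1 count in SUDHL6 libraries.

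AFG3L2 (ENSG00000141385, chr18:12328944-12377227, minus strand), the catalytic m-AAA subunit that can also assemble alone, was at 61.89, 68.22 and 64.0 CPM in parental and 100.9, 103.7 and 100 CPM in resistant SUDHL6 libraries. Every resistant library lay above every parental one. The mean rose from 64.71 ± 3.23 to 101.5 ± 1.95 CPM (SD, n = 3), 1.569-fold, with a log2 fold change of 0.65 ± 0.035 (SE) and an adjusted p of 2.144e-08 (edgeR). The transcribed pseudogene AFG3L1P, a related copy whose counts were 26.2% to 90.34% of those of AFG3L2 over the 12 libraries, went the other way in SUDHL6, from 34.0 ± 0.808 to 31.34 ± 0.826 CPM (SD, n = 3), without passing (adjusted p = 0.05959, edgeR).

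SPG7, the partner of AFG3L2 in the mixed m-AAA complex, was at 48.93 to 52.45 CPM in parental and 49.59 to 51.25 CPM in resistant SUDHL6 libraries. The groups overlapped, and the 95% interval of its log2 fold change was -0.071 to 0.086. The count ratio of AFG3L2 to SPG7 was 1.263, 1.394 and 1.22 in the parental and 1.968, 2.091 and 1.983 in the resistant libraries. The excess of AFG3L2 counts over those of SPG7 was thus larger in all 3 resistant libraries.

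**Figure D2:**
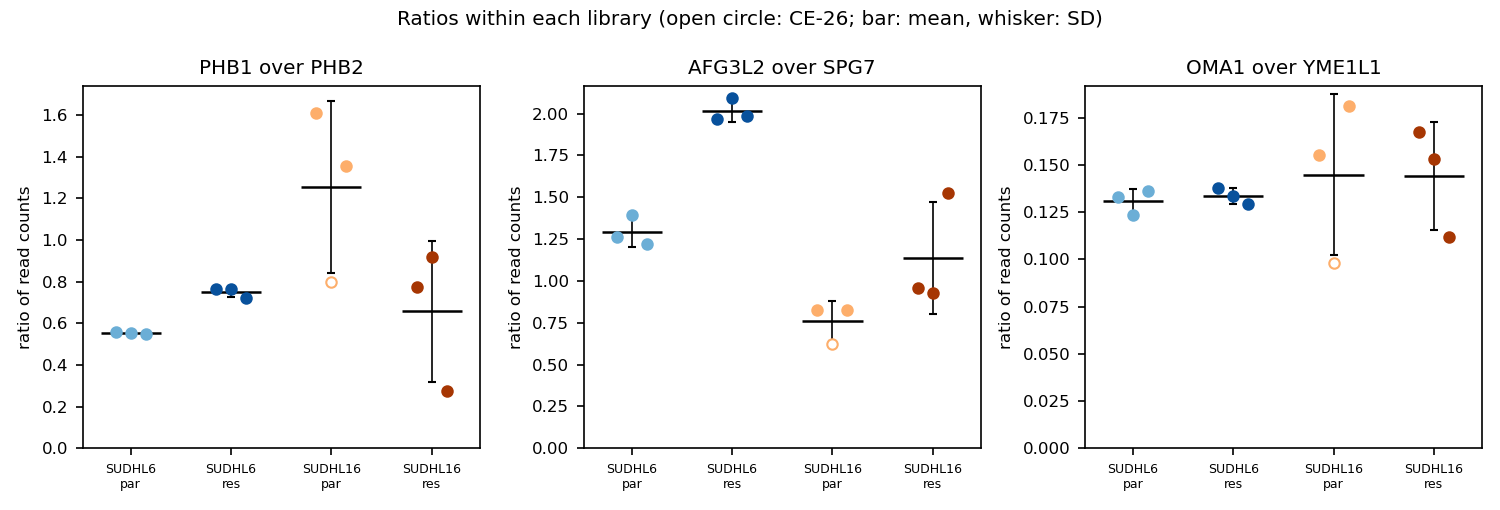
Ratios of read counts within each library (vertical axes, from 0) for PHB1 over PHB2, AFG3L2 over SPG7 and OMA1 over YME1L1, 1 point per library, with mean bars and SD whiskers (n = 3) and CE-26 as an open circle. AFG3L2 over SPG7 is higher in the resistant libraries of both lines, but in SUDHL16 only CE-30 stands well apart and neither gene passed. PHB1 over PHB2 is higher in resistant SUDHL6 and lower on average in resistant SUDHL16, and OMA1 over YME1L1 overlaps in both.

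Of the 2 OPA1-cutting proteases, neither passed in SUDHL6. OMA1 was at 25.82 to 27.82 CPM in parental and 26.54 to 27.73 CPM in resistant libraries, with a 95% interval of the log2 fold change of -0.11 to 0.12. YME1L1 was at 204.1 to 209.3 and 199.3 to 207.3 CPM, with an interval of -0.074 to 0.027. Both intervals exclude a change of 1.5-fold. The count ratio of OMA1 to YME1L1 was 0.1309 ± 0.00647 in parental and 0.1336 ± 0.00432 in resistant libraries (SD, n = 3), with overlapping groups. YME1L1 overlaps MASTL on the opposite strand, and MASTL counts were 23.49% to 46.81% of those of YME1L1 over the 12 libraries. MASTL fell in SUDHL6 (log2 fold change -0.25, adjusted p = 0.0003391, edgeR) while YME1L1 did not pass.

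OPA1 itself was at 176.7, 186.1 and 176.6 CPM in parental and 170.6, 176.8 and 168.0 CPM in resistant SUDHL6 libraries. The groups overlapped slightly and the change did not pass (log2 fold change -0.065, 95% interval -0.13 to -0.0039, adjusted p = 0.09074, edgeR), although it did without resistant library CE-11 (adjusted p = 0.04354). IMMT was at 149.5, 146.7 and 147.3 CPM in parental and 152.0, 155.9 and 156.0 CPM in resistant libraries. It rose by a log2 fold change of 0.065 ± 0.023 (SE, adjusted p = 0.0429, edgeR), the smallest change of the members that passed. Leaving out any single SUDHL6 library other than CE-10 lost that pass, with adjusted p of 0.05675 (without CE-7), 0.09796 (CE-8), 0.09515 (CE-9), 0.1042 (CE-11) and 0.114 (CE-12). The count ratio of OPA1 to IMMT was 1.182 to 1.269 in parental and 1.077 to 1.134 in resistant libraries.

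CLPB was at 51.08, 54.53 and 51.2 CPM in parental and 63.53, 55.66 and 59.53 CPM in resistant SUDHL6 libraries. All 3 resistant libraries were higher than all parental ones, CE-11 only narrowly. The log2 fold change was 0.19 ± 0.046 (SE, adjusted p = 0.006132, edgeR). The antisense gene ENSG00000255843 overlaps CLPB, with counts of 0.3238% to 23.28% of those of CLPB over the 12 libraries, and whether counting used strand is not given in the sources used here. CLPP was at 63.3 to 69.93 CPM in parental and 64.3 to 68.83 CPM in resistant libraries, with an interval of the log2 fold change of -0.10 to 0.074.

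In SUDHL16 none of the 10 members passed, with or without the fold limit, and none had an unadjusted p under 0.05 (edgeR), where 5.3% of 15708 genes tested were called (3.2% higher and 2.1% lower, and all that passed the adjusted p also passed the fold limit). DESeq2 also called 0 members and limma voom with sample quality weights called 1, PHB1. All 10 members overlapped between the groups, whereas 26.6% of all genes did not. Of the members, 8 of 10 had a log2 fold change above 0, as did 7717 of 15708 genes tested. The median of the members was 0.16, against -0.015 over all genes tested and 0.042 over the protein-coding ones. Without CE-26 the changes of OPA1 and OMA1 were below 0 and that of SPG7 above 0, each with the other sign than with all libraries. The 95% intervals were wide, and all 10 included a change of 1.5-fold in at least 1 direction, so a change of that size could not be told from none at this spread.

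PHB1 had the smallest adjusted p of the members in SUDHL16. It was at 179.0, 95.4 and 181.0 CPM in the parental libraries CE-25, CE-26 and CE-27 and at 103.2, 112.7 and 43.22 CPM in the resistant libraries CE-28, CE-29 and CE-30. CE-26 lay among the resistant libraries, and CE-30 was the lowest of all. The mean was 151.8 ± 48.9 CPM in parental and 86.37 ± 37.7 CPM in resistant libraries (SD, n = 3), a log2 fold change of -0.82 with a 95% interval of -1.75 to 0.11 and an adjusted p of 0.3277 (edgeR). Without CE-26 the groups did not overlap, as for 42.2% of genes, and the log2 fold change was -1.05 with an interval of -1.89 to -0.21 and an adjusted p of 0.124 (edgeR). Without CE-30 it was -0.49 (adjusted p = 0.6397). The weighted voom fit gave -0.98 with an adjusted p of 0.03534, and called 16.9% of all genes. Summed pseudogene counts were 3.944% to 7.987% of the PHB1 count in 4 of the SUDHL16 libraries, but 26.71% in CE-26 and 21.56% in CE-30, the lowest library of each group for PHB1, and their part in these values was not tested.

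PHB2 in SUDHL16 was at 111.3, 119.5 and 133.4 CPM in parental and 133.0, 122.7 and 156.3 CPM in resistant libraries. The groups overlapped, and the log2 fold change was 0.18 with a 95% interval of -0.34 to 0.69 (adjusted p = 0.7424, edgeR), and 0.18 without CE-26 as well (adjusted p = 0.7108). That interval excludes the fall measured in SUDHL6. The count ratio of PHB1 to PHB2 was 1.608, 0.7983 and 1.357 in parental and 0.7754, 0.9191 and 0.2765 in resistant SUDHL16 libraries, so CE-26 again lay among the resistant libraries. The mean ratio was 1.254 in parental and 0.657 in resistant libraries, with overlapping groups and a log2 difference of -1.05, against 0.44 in SUDHL6. Without CE-26, a comparison added after seeing the data, the parental mean was 1.482 and the log2 difference -1.34.

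AFG3L2 in SUDHL16 was at 48.33, 71.29 and 51.21 CPM in parental and 64.97, 51.76 and 99.83 CPM in resistant libraries. The high parental value was CE-26 and the high resistant value CE-30. The log2 fold change was 0.35 with a 95% interval of -0.34 to 1.03 (adjusted p = 0.5998, edgeR), 0.55 without CE-26 (adjusted p = 0.3209) and 0.055 without CE-30 (adjusted p = 0.9682). SPG7 was at 114.7 CPM in CE-26 and at 55.62 to 67.85 CPM in the other 5 libraries, and its log2 fold change was -0.30 with and 0.079 without CE-26 (adjusted p = 0.6545 and 0.8707, edgeR). The count ratio of AFG3L2 to SPG7 was 0.8266, 0.6216 and 0.8291 in parental and 0.9576, 0.9306 and 1.524 in resistant libraries. It was higher in all 3 resistant libraries, but CE-28 and CE-29 lay nearer to the parental values than to CE-30. How often such ratios separate the groups for other gene pairs was not tested. Single genes did so for 26.6% of those tested in SUDHL16.

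CE-26 also stood apart for 3 other members. OPA1 was at 179.4 CPM in CE-26 and at 313.8 to 427.0 CPM in the other 5 libraries, OMA1 at 25.14 against 35.43 to 47.92 CPM, and IMMT at 66.81 against 94.98 to 112.6 CPM. With all libraries their log2 fold changes were 0.24 for OPA1, 0.11 for OMA1 and 0.24 for IMMT (adjusted p of 0.7745, 0.8876 and 0.6673, edgeR). Without CE-26 they were -0.015, -0.11 and 0.084 (adjusted p of 0.9796, 0.8336 and 0.8574). YME1L1 (256.6 to 316.3 CPM over the 6 libraries), CLPB (24.65 to 37.81 CPM) and CLPP (28.71 to 58.41 CPM) overlapped between the groups with or without CE-26. The log2 fold change of YME1L1 was 0.15 with and 0.12 without CE-26, and that of CLPB 0.097 and 0.095. CLPP had the largest log2 fold change above 0 of the members, 0.41 with an interval of -0.23 to 1.05 and 0.56 without CE-26 (adjusted p = 0.4874 and 0.2986, edgeR).

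**Figure D3:**
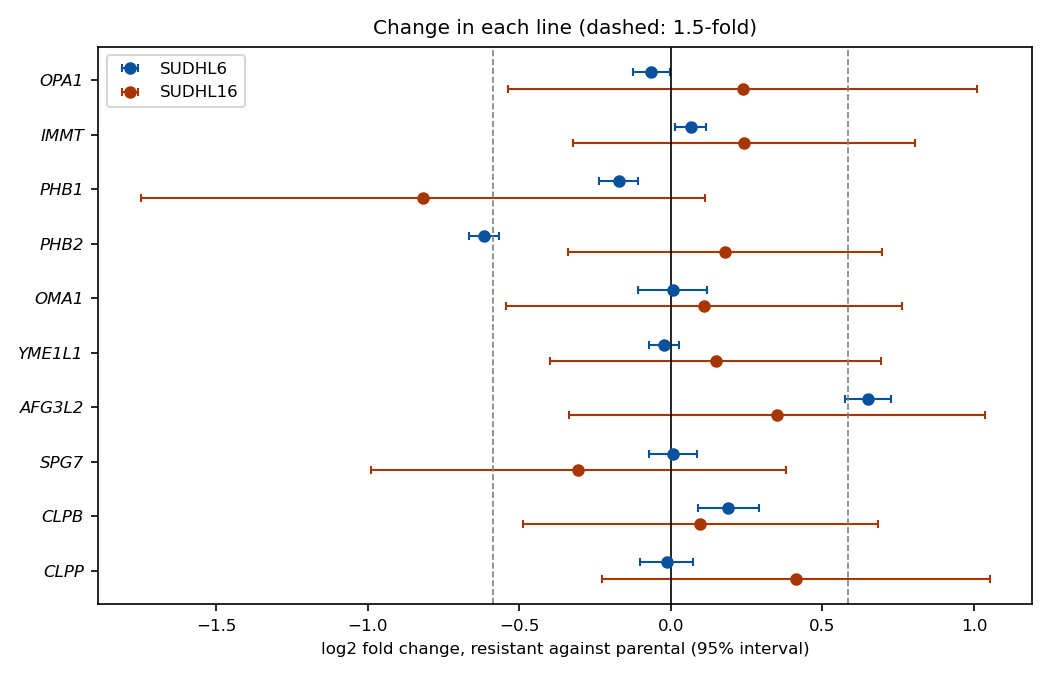
Log2 fold change of resistant against parental (horizontal axis) for each member in SUDHL6 (blue) and SUDHL16 (brown), with 95% intervals from edgeR and dashed lines at 1.5-fold. The SUDHL6 intervals are narrow, with PHB2 at -0.62 and AFG3L2 at 0.65, and all 10 SUDHL16 intervals include 0.

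The test of the difference between the 2 changes (an interaction of line and resistance in edgeR over all 12 libraries) passed for 1 member, PHB2, where 7.16% of 19621 genes passed. The PHB2 change was higher in SUDHL16 than in SUDHL6 by 0.83 ± 0.20 on the log2 scale (SE, 95% interval 0.38 to 1.28, adjusted p = 0.03008). This fit takes a spread common to both lines, with a biological coefficient of variation of 0.3693 against 0.4677 in SUDHL16 alone. Its SE was below that of the SUDHL16 change of PHB2 alone (0.23), so the interval may be too narrow and the adjusted p too small. The pass was lost without scaling factors (adjusted p = 0.08599), without a filter on low counts (0.1781) and without any 1 of 8 libraries, CE-25, CE-30 and each of the 6 SUDHL6 libraries (0.06268 to 0.1048), although the difference was between 0.67 and 0.97 under each alternative run for it (DESeq2, both scalings, no filter, protein-coding genes only and each library left out). For PHB1 the difference was -0.64 (interval -1.68 to 0.40, adjusted p = 0.4892) and for AFG3L2 -0.24 (interval -0.90 to 0.42, adjusted p = 0.7262), so neither was shown to differ between the lines.

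Per kilobase of the canonical transcript, PHB2 had the highest and CLPB the lowest mean level of the 10 genes in all 4 groups. In parental SUDHL6 the order was PHB2 (228.5 ± 3.77 CPM per kb, SD, n = 3), PHB1 (94.97 ± 2.44), IMMT (54.97 ± 0.544), YME1L1 (49.49 ± 0.694), OPA1 (27.96 ± 0.851), CLPP (27.54 ± 1.39), AFG3L2 (20.48 ± 1.02), SPG7 (16.3 ± 0.656), OMA1 (14.58 ± 0.613) and CLPB (5.246 ± 0.197). Only OPA1 and CLPP overlapped as neighbours in that order. In resistant SUDHL6, AFG3L2 had rank 5 at 32.13 ± 0.616 CPM per kb, above CLPP and OPA1. In SUDHL16 most neighbours overlapped. There PHB2 (88.04 ± 8.09) and PHB1 (82.77 ± 26.6) led in parental and PHB2 (99.58 ± 12.5) and YME1L1 (71.17 ± 6.24) in resistant libraries. With merged exons of all transcripts as the length, YME1L1 led in SUDHL16 and SPG7 fell to rank 9 or 10 in every group, since its merged exons span 35761 bases against 3076 in the canonical transcript.

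In SUDHL6 most genes within 1 Mb of PHB2 and of AFG3L2 had log2 fold changes of the same sign as these members, though fewer of them were called. Within 1 Mb of AFG3L2 on chromosome 18, 12 of 13 protein-coding genes tested had a higher level in the resistant line (median log2 fold change 0.71), and 9 were called higher, where 4.31% of all genes were. Within 1 Mb of PHB2 on chromosome 12, 32 of 37 were lower, with a median of -0.35, and 6 were called lower, where 4.65% of all genes were. AFG3L2 thus lay close to the median of its neighbours and PHB2 below that of its own. Over 10 Mb the medians were 0.60 (40 genes) and -0.36 (110 genes), whereas over the whole chromosomes they were -0.23 on chromosome 18 (156 genes, 101 of them lower, opposite to AFG3L2) and -0.058 on chromosome 12 (660 genes). The median of all protein-coding genes was -0.00085. Around the other 8 members the 1 Mb medians were between -0.25 (OPA1, 7 genes) and 0.073 (YME1L1, 8 genes). In SUDHL16 the neighbours of PHB1 had a median of -0.40, with 19 of 23 lower, against 0.042 over all protein-coding genes, and those of PHB2 and AFG3L2 had medians of 0.23 and -0.052.

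**Figure D4:**
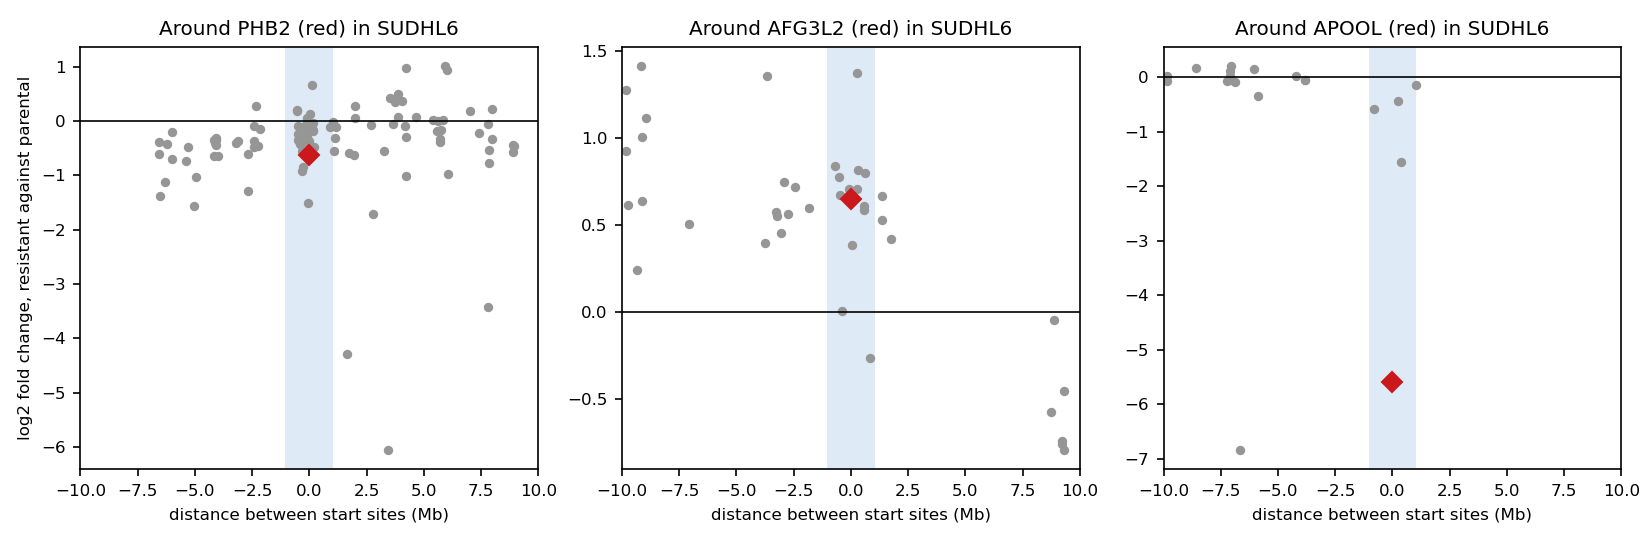
Log2 fold change in SUDHL6 (vertical axis) of protein-coding genes within 10 Mb of PHB2, AFG3L2 and APOOL (red diamonds) against the distance between start sites in Mb (horizontal axis), with 1 Mb either side shaded. Most genes near PHB2 lie below 0, most near AFG3L2 lie above 0 near its own value, and APOOL lies far below the other genes in its shaded range.

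The 5 genes with profiles most like PHB2 in SUDHL6, by Pearson r of log2 CPM over the 6 libraries among 9461 protein-coding genes at 5 CPM or more, were CD79B, FGFR1OP2, BLK, IGLL5 (r = 0.9996 each) and PPIA (0.9995). The libraries share their 2 groups, so such values describe any gene with a clear fall in the resistant line. In SUDHL16 the genes most like PHB1, of 9823 compared, were ATP5MC1, RETREG3 (0.9965 each), PAQR6 (0.9962), ZC3H10 (0.9932) and CALM2 (0.9896). ATP5MC1 and RETREG3 lie on chromosome 17 like PHB1. RETREG3 had a log2 fold change of only -0.087, so a high r over 6 libraries need not reflect a difference between the groups.

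Among 70 related mitochondrial genes in 7 lists, 8 passed as higher and 19 as lower in resistant SUDHL6, where 17.7% and 19.7% of all genes did. Where 8.96% of all genes were called (4.65% as lower), 2 of the 70 were, both lower. These were APOOL, a MICOS subunit, and TAFAZZIN, the transacylase that remodels cardiolipin. Of 11 genes of MICOS and its outer-membrane partners, 2 passed, both lower. Of 9 genes of cardiolipin synthesis and remodelling, 1 passed as higher and 5 as lower (median log2 fold change -0.21), and of 8 matrix chaperones 1 passed as higher and 5 as lower, with a median of -0.098. Of 11 fusion, fission and OPA1 partner genes 2 passed as higher and 3 as lower, and of 14 other mitochondrial proteases and peptidases 2 each way. Of 11 scaffolds, adaptors and substrates of the inner-membrane proteases 2 passed, both lower. Of 6 genes listed for the ATP synthase dimer and cristae edge 2 passed, both higher, the subunit gene ATP5ME and the inhibitor gene ATP5IF1.

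APOOL (chrX:85003877-85093315) was at 8.871, 9.148 and 8.529 CPM in parental SUDHL6 libraries and at 0.174, 0.1981 and 0.1652 CPM in resistant ones, from counts of 302, 310 and 347 against 7, 8 and 6. Its transcript was almost absent from all 3 resistant libraries. The log2 fold change was -5.60 ± 0.16 (SE, adjusted p = 1.02e-10, edgeR), and the 4 protein-coding neighbours within 1 Mb had a median of -0.51. In SUDHL16, APOOL was at 217.4, 558.9 and 235.9 CPM in parental and 176.8, 153.5 and 98.64 CPM in resistant libraries, lower in all 3 resistant libraries without passing (log2 fold change -1.24, adjusted p = 0.1542; without CE-26 -0.65, adjusted p = 0.1928, edgeR). It passed with DESeq2 (-1.20, adjusted p = 0.04774) and in the single edgeR fit of all libraries (-1.16, adjusted p = 0.02087). The single fit takes a spread common to both lines, which is below that of SUDHL16 alone. The mean level of APOOL in parental cells was 337.4 CPM in SUDHL16 against 8.849 CPM in SUDHL6, and kit, counting and line cannot be told apart in that gap. IMMT, the core of the same complex, rose slightly in SUDHL6 and did not pass in SUDHL16, as described above.

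TAFAZZIN was at 72.64, 70.76 and 69.78 CPM in parental and 43.37, 41.47 and 44.69 CPM in resistant SUDHL6 libraries, a log2 fold change of -0.72 ± 0.034 (SE, adjusted p = 7.919e-09, edgeR). The call was lost in the single fit of all libraries (adjusted p = 0.06803). Of its 41 neighbours within 1 Mb, 37 were lower, with a median of -0.74. DNM1L, the GTPase that divides mitochondria and acts against the fusion driven by OPA1, fell from 129.6 ± 4.16 to 86.7 ± 2.28 CPM (SD, n = 3) with a log2 fold change of -0.58 (adjusted p = 1.98e-08, edgeR), just under 1.5-fold. DNM1L lies on chromosome 12 like PHB2, and all 6 of its neighbours within 1 Mb were lower, with a median of -0.43. The chaperonin gene HSPD1 fell by 0.26 on the log2 scale (adjusted p = 1.13e-07, edgeR), the matrix protease gene LONP1 by 0.25 (adjusted p = 7.771e-06) and the prohibitin relative STOML2 by 0.11 (adjusted p = 0.0035). ATP5IF1, the inhibitor of ATP synthase, rose by 0.29 (adjusted p = 9.946e-07, edgeR).

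In SUDHL16, 1 of 69 related genes tested passed, LONP1, where 5.3% of all genes did. It was at 86.85, 90.58 and 85.91 CPM in parental and 179.6, 159.0 and 214.5 CPM in resistant libraries, with CE-26 close to the other parental libraries. The log2 fold change was 1.07 ± 0.23 (SE, adjusted p = 0.03421, edgeR), and 1.10 without CE-26 (adjusted p = 0.01879). The call was lost without scaling factors (adjusted p = 0.08699), without the filter (0.08289) and when any 1 of the other 5 libraries was left out, with adjusted p of 0.1391 (without CE-25), 0.1436 (CE-27), 0.1158 (CE-28), 0.09822 (CE-29) and 0.1231 (CE-30). The smallest adjusted p of the other lists in SUDHL16 were those of HAX1 (log2 fold change 0.96, adjusted p = 0.09794), MTFP1 (0.68, adjusted p = 0.1251), APOOL, HSPE1 (-0.89, adjusted p = 0.1821), TAMM41 (-0.43, adjusted p = 0.3735) and ATP5ME (-1.28, adjusted p = 0.4419, edgeR). Without CE-26 the log2 fold changes were 0.76 for HAX1, 0.63 for MTFP1, -0.47 for HSPE1, -0.37 for TAMM41 and -0.21 for ATP5ME, and none passed. HAX1 passed with DESeq2 (adjusted p = 0.03057), with limma voom (0.03056) and in the single fit of all libraries (0.01662), as did MTFP1 (0.03081, 0.03769 and 0.009788), and HSPE1 passed in the single fit (0.02448). The voom fit called 16.9% of all genes in SUDHL16, against 5.3% in the main edgeR fit. The single fit takes a spread common to both lines, below that of SUDHL16 alone. The share of all genes that DESeq2 passed is not given here. HSPD1 and HSPE1 overlap on opposite strands, and their reads may be shared.

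**Figure D5:**
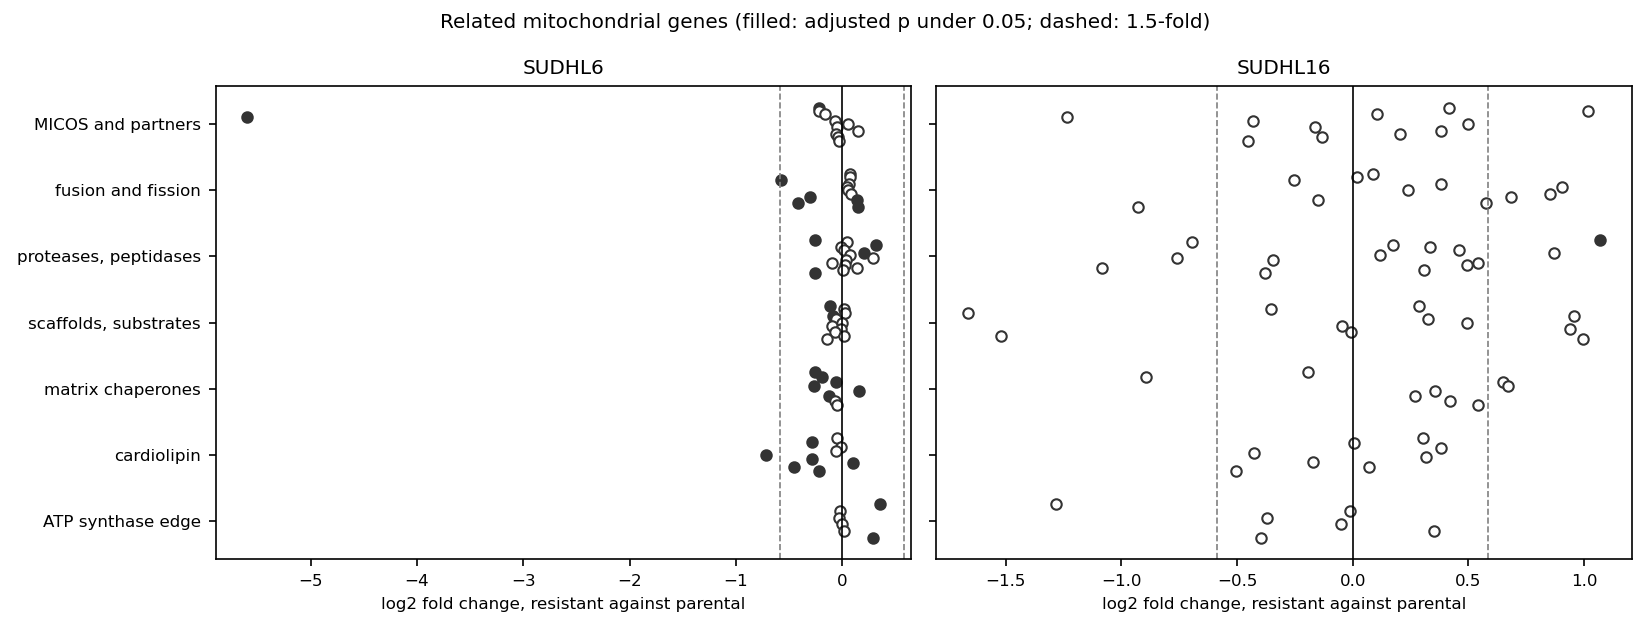
Log2 fold change of resistant against parental (horizontal axes, on different scales) of the related genes by list (rows) in SUDHL6 (left, 70 genes) and SUDHL16 (right, 69 genes), filled where the adjusted p is under 0.05 and with dashed lines at 1.5-fold. In SUDHL6 most genes lie near 0 with APOOL at -5.60, and in SUDHL16 the genes spread widely and only LONP1, at 1.07, is filled.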

How the data were processed

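Per the labels and the paper's methods, the authors trimmed reads with Trim Galore, aligned them to GRCh38 with HISAT2 and assembled transcripts with StringTie. They deposited raw read counts per gene, 1 file per library. The counting tool, its annotation and its use of strand are not given in the sources used here, so overlapping genes and near-identical copies may share reads. Of 60675 identifiers, 56558 matched GENCODE 44, which gave symbols, positions and canonical transcripts.

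Counts of each line were tested alone with edgeR 4.0.16 (R 4.3.3): filterByExpr, TMM, the two-sided quasi-likelihood test and Benjamini-Hochberg adjustment over all genes tested. Called genes met an adjusted p threshold of 0.05 and the 1.5-fold limit of the paper. CPM use as library size the counts on genes kept by the filter, times the TMM factor, within each line, and ratios use counts of 1 library. Intervals are at 95%. Differences between the lines are the interaction over all 12 libraries. Replicates of a group were compared and no libraries were identical. Alternatives were DESeq2 1.42.0, limma 3.58.1 voom with quality weights, other scalings, no filter, protein-coding genes only, a single fit of all libraries, and each library left out in turn. Merged exon lengths and ratios without CE-26 were added after seeing the data. The fits were tested on simulated data. Figures and tables used Python 3.11.15.

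Named genes are the 10 members and, of 7 lists of related genes, every called gene and, per list and line, the gene of lowest adjusted p, plus copies, overlapping genes and the 5 genes most like 1 member per line. The members and lists were chosen with earlier results of these data known.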

Additional observations from a re-analysis of the deposited data

Results flagged for a closer look

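The change with resistance differed between the lines for 5 of 22 named genes in the interaction test of edgeR over all 12 libraries, where 7.16% of all genes passed. That test takes a spread common to both lines, which is below that of SUDHL16 alone, so its p-values may be too small. The related genes among them were named for their change in 1 of the lines, which favours a difference, so the count itself is only a description. Values are the log2 change in SUDHL16 minus that in SUDHL6. PHB2 differed by 0.83 (adjusted p = 0.03008), with a log2 fold change of -0.62 in SUDHL6 and 0.18 in SUDHL16. Of the related genes, APOOL differed by 4.43 (adjusted p = 0.0002689), being lower in all 3 resistant libraries of both lines but much more so in SUDHL6. Its mean in parental libraries was 8.849 CPM in SUDHL6 against 337.4 CPM in SUDHL16, where CE-26 was at 558.9 CPM. Kit, counting and line cannot be told apart in that gap. LONP1 differed by 1.36 (adjusted p = 0.001444), with a fall in SUDHL6 and a rise in SUDHL16. MTFP1, a gene of mitochondrial fission, differed by 1.005 (adjusted p = 0.01458), and TAFAZZIN by 1.06 (adjusted p = 0.01121). Both had a lower level in all 3 resistant SUDHL6 libraries and a higher one in all 3 resistant SUDHL16 libraries. Groups did not overlap for 47.9% of all genes in SUDHL6 and 26.6% in SUDHL16. In SUDHL16 neither change passed in edgeR, and the 95% interval of TAFAZZIN was -0.21 to 0.84, so a rise was not shown. The MTFP1 change did pass with DESeq2 (adjusted p = 0.03081), limma voom (0.03769) and the single fit of all libraries (0.009788), with the limits of voom and the single fit given above.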

How the results depend on the processing

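The 2 calls in SUDHL6 (PHB2 and AFG3L2) were made under every alternative but the single fit of all libraries, which called 0, and leaving out a library gave 2 to 2 calls. In SUDHL16 limma voom with quality weights called 1 member (PHB1) and every other alternative 0, with 0 to 0 calls when a library was left out. The number of members whose change differed between the lines, 1, was 0 with library totals, 0 without a filter and 0 to 1 when a library was left out. Several changes that had not passed changed sign. In SUDHL6 CLPP was 0.0032 (log2) with upper-quartile scaling and ranged over -0.047 to 0.026 with a library left out, OMA1 over -0.027 to 0.027 and SPG7 over -0.0085 to 0.042. In SUDHL16 voom gave -0.060 for OMA1 and 0.0054 for SPG7, and leaving out a library gave -0.015 to 0.46 for OPA1, -0.11 to 0.28 for OMA1, -0.062 to 0.26 for CLPB and -0.46 to 0.079 for SPG7. For the difference between the lines, OMA1 was -0.011 with upper-quartile scaling, CLPB 0.023 with library totals and 0.059 without a filter, and the ranges were -0.16 to 0.31 for OMA1, -0.21 to 0.15 for CLPB, -0.33 to 0.025 for SPG7 and -0.025 to 0.37 for IMMT. Without CE-26 the log2 difference of OMA1 over YME1L1 in SUDHL16 went from 0.020 to -0.24 and that of OPA1 over IMMT from 0.027 to -0.11. The cause was not tested. Library totals moved the median of all genes in SUDHL16 by 0.13 and upper-quartile scaling that of the difference between the lines by -0.15, and relative to these shifts 0 members changed sign. No paired analysis was possible because the labels carry no replicate numbers, and the numbers used here follow accession order only. The spread between SUDHL16 libraries limits what could be seen there.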
